A study of Homo sapiens with 6 samples.

Results

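The retinoic acid receptors RARA, RARB and RARG, the retinoid X receptors RXRA and RXRB, and the vitamin D receptor VDR were chosen by name, which gave 6 genes of the 20163 protein-coding genes annotated on GRCh37 and of the 19666 placed on GRCh38. For each gene, the H3K27Ac and H3K4me3 peaks were taken from the gene record with 20000 bp on either side, and every annotated transcript start was examined. The cells were OCI-AML3 (OCIAML3 in the labels), a cultured acute myeloid leukemia (AML) line with a mutant NPM1 allele (mtNPM1). The sgNeg cells had received a control guide RNA and the sgNpm1A cells a guide RNA directed against mtNPM1, and per the labels both were taken after 3 days. The text of the study gives a longer incubation. Each guide had 1 H3K27Ac library, 1 H3K4me3 library and 1 input library, so the series held 6 samples in 6 groups of 1, and peak lists were at hand for the 4 antibody libraries. With 1 library per group there was no replicate error and no test between guides, and every value below describes these 4 libraries. A peak list does not show the edit itself, so the guide labels could not be checked here.

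Retinoic acid receptors bind all-trans-retinoic acid, pair with a retinoid X receptor and sit on DNA at direct repeats, where they recruit corepressors without ligand and coactivators with it. RARA is best known in AML as the fusion partner of PML in acute promyelocytic leukemia, in which retinoic acid induces granulocytic differentiation. VDR binds the active form of vitamin D, also pairs with a retinoid X receptor, and promotes monocytic differentiation of myeloid cells. H3K4me3 marks promoters of active or poised genes, and H3K27Ac marks active promoters and enhancers.

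The transcript start that carried H3K4me3 in control cells was the second RefSeq start in RARA and the first RefSeq start in RXRA. The 250 bases upstream of these starts are printed beside those of the other RARA and RXRA starts because the starts of each gene differ in peak height, in CpG content, or in both. RefSeq promoter windows on GRCh38.p14 (250 bases before and 50 after each start) were matched for 5 of the 6 genes. All lines run 5′ to 3′ on the plus strand, which is the strand of both genes, and capitals mark CpG dinucleotides.
RARA, the first start, chr17:40308930-40309179: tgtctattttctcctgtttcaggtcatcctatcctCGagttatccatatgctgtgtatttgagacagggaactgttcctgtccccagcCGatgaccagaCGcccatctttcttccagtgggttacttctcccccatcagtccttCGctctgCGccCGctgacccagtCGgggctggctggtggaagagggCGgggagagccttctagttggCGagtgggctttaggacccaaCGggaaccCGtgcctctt
RARA, the second start, chr17:40317995-40318244: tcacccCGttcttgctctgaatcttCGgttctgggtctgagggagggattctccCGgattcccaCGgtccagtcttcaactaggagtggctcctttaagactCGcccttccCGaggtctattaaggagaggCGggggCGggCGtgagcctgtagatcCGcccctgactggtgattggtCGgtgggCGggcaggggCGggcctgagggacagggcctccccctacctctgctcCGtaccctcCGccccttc
RARA, the third start, chr17:40341916-40342165: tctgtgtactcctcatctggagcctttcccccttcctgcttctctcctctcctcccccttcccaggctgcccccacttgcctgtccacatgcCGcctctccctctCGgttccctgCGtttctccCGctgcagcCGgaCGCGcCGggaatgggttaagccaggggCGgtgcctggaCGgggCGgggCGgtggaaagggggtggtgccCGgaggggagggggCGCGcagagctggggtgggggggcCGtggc
RXRA, the first start, chr9:134326205-134326454: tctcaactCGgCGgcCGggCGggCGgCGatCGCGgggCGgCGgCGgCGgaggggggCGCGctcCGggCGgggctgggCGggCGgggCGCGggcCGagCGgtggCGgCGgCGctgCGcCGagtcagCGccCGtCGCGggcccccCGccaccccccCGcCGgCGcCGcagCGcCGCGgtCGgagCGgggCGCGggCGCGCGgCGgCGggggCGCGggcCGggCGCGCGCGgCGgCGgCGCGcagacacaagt
RXRA, the second start, chr9:134379045-134379294: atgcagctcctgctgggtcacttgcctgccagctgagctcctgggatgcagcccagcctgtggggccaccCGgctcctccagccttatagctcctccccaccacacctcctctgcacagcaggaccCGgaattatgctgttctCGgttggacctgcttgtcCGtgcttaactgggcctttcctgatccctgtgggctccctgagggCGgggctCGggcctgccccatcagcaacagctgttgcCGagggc

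The RXRA first start held 59 CpG in its 250 upstream bases and 65 in the whole window of 300 bases, at the 99.98th percentile of the 22199 windows of coding genes, whereas its second start held 8 in the whole window. The 3 RARA windows held 12, 19 and 22 CpG, so the RARA start with the tall H3K4me3 peak was not the one with the most CpG. The GC box GGGCGG, searched on both strands and present in 56.3% of all windows, occurred 5 times at the second RARA start and 6 times at the first RXRA start. It also occurred 5 times at the RARG start, where the sgNeg H3K4me3 fold enrichment was 2.91. The third RARA and first RARB starts, without a sgNeg peak, held 3 each. The RXRB starts, with a fold enrichment of 7.28, held 1 and 0, and the first RARA and second RXRA starts 1 each. RARB also held another feature. The direct repeat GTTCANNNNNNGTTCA, the arrangement that RAR and RXR pairs are known to bind, was searched on both strands together with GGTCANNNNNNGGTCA, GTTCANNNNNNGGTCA and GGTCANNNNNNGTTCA. Any of these 4 occurred in 0.162% of windows, and among the receptor starts only the third RARB start held one, at bases -52 to -37 from the start. It is shown in 30 bases with the repeated copies in capitals.
RARB, the third start, chr3:25428204-25428233: gggtaggGTTCAccgaaaGTTCActcgcat

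The lists differed in ways that bear on every gene. They held 327715 (sgNeg) and 317059 (sgNpm1A) H3K27Ac peaks over 220 and 195 Mb, and 353628 and 106641 H3K4me3 peaks over 93.7 and 55.4 Mb. The H3K27Ac coordinates ran past the end of chromosome 1 of GRCh38 and so were read on GRCh37, while the H3K4me3 coordinates ran past the end of chromosome 17 of GRCh37 and were read on GRCh38. For these libraries the study's methods name hg38. Fold enrichment in the H3K4me3 lists stepped in whole fragments over a constant background of 3.81 (sgNeg) and 2.93 (sgNpm1A) fragments, which gives the number of fragments at each summit. The shallowest H3K4me3 peak held 11 fragments in sgNeg and 10 in sgNpm1A, so where no peak was listed the fold enrichment was below the lowest of the list (2.50 in sgNeg and 2.80 in sgNpm1A) or the enriched stretch was narrower than its narrowest peak (110 and 245 bp). The sgNpm1A H3K4me3 list stood apart. A peak within 1 kb of a start, called a promoter peak here, was listed for 9.49% of coding genes against 68.3% in sgNeg. In sgNeg the share of starts with a peak was 29.9% at 0 to 4 CpG per window and 82.0% at 30 or more, and in sgNpm1A it was 10.8% and 3.87%. Since this was the only sgNpm1A H3K4me3 library, no value without it can be given, and the part of this difference between the lists in the results below was not tested. The names of the H3K27Ac lists carry a tag that those of the H3K4me3 lists lack, whose meaning is not given in the sources used here.

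Of the 10 myeloid marker genes, 10 had a sgNeg H3K27Ac promoter peak and 6 a sgNpm1A one, and 7 and 2 had an H3K4me3 one. Of all coding genes, 79.1% (sgNeg) and 57% (sgNpm1A) had an H3K27Ac one, and 68.3% and 9.49% an H3K4me3 one. SPI1 was at the 100th and CEBPA at the 99.8th percentile of fold enrichment within the sgNeg H3K27Ac list. Of 4 B cell, 4 T cell and 4 erythroid markers, 4, 3 and 3 had a sgNeg H3K27Ac promoter peak and 3, 2 and 3 a sgNpm1A one, and 1, 2 and 1 had a sgNeg and 1, 1 and 0 a sgNpm1A H3K4me3 one. EBF1, a B cell factor gene, was at the 96.1st percentile for H3K27Ac and the 94.4th for H3K4me3 in sgNeg, and EPOR, the erythropoietin receptor gene, at the 97.9th for H3K27Ac. In sgNpm1A, PAX5 was at the 98.1st percentile for H3K27Ac and CD3D, a T cell receptor complex gene, at the 92.6th for H3K4me3. PAX5, BCL11B and GATA1 had no H3K4me3 promoter peak in either list, and neither did the myeloid markers LYZ and FLT3.

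An H3K27Ac promoter peak was listed for 6 of 6 receptor genes in each list, where 79.1% of coding genes had one in sgNeg and 57% in sgNpm1A. With a q-value under 0.01, or with the record start alone, it was 5 of 6 in each. An H3K4me3 promoter peak was listed for 5 of 6 with sgNeg (68.3% of coding genes) and for 1 of 6 with sgNpm1A (9.49%), which was 0 of 6 with an overlap of 200 bp, a promoter of 250 bp or the record start alone. All 5 genes with a sgNeg H3K4me3 peak lacked a sgNpm1A peak at the same start. Counted by gene, 4 of these 5 had no sgNpm1A promoter peak at any start, where 88.6% of coding genes with a sgNeg one had none. To set peaks of different lists side by side, each was placed by its percentile of fold enrichment within its own list. The highest H3K27Ac promoter peak was at a lower percentile in sgNpm1A for RARA (99.3 to 71.1), RARG (91.8 to 69.6), RXRA (99.03 to 67.2) and RXRB (98.6 to 61.0), which is 4 of 6 where 65.6% of coding genes were lower. It was at a higher percentile for RARB (71.6 to 92.2) and VDR (86.5 to 87.6), which is 2 of 6 where 18.4% of coding genes were higher. The highest H3K4me3 promoter peak was at a lower percentile in sgNpm1A for 5 of 6, against 65.8% of coding genes, and at a higher one for 0 of 6, against 4.26%. RARB had none in either list.

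**Figure D1:**
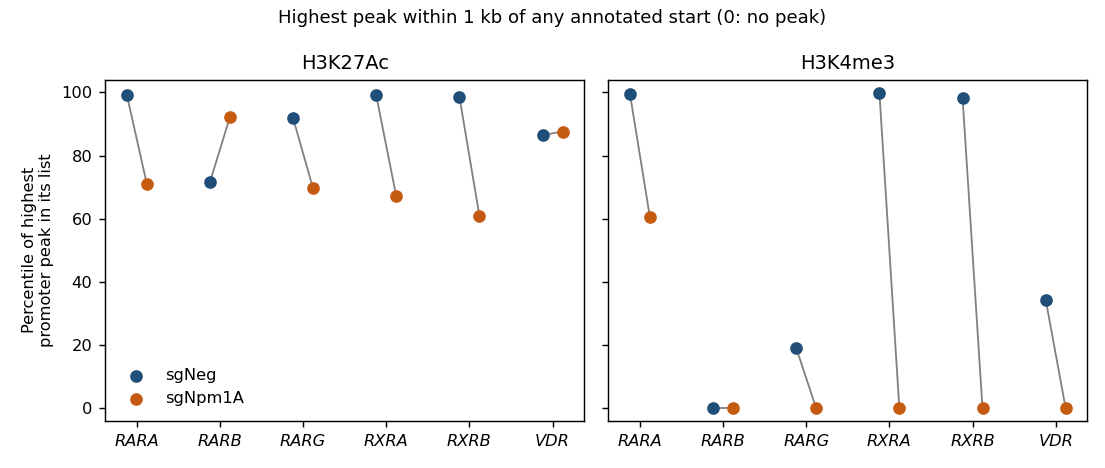
Percentile of fold enrichment, within its own peak list, of the highest peak within 1 kb of any annotated start of each receptor gene (y axis, 0 where no peak was listed), for H3K27Ac (left) and H3K4me3 (right). Points are single libraries joined by gene, blue for sgNeg and orange for sgNpm1A. For H3K4me3, RARA alone had a point above 0 in sgNpm1A, at 60.5, and that peak was at a different start. For H3K27Ac the joined points of RARB, RARG, RXRA and VDR also came from different starts.

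RARA, the receptor that mediates retinoic acid responses in myeloid cells, lies on the plus strand of chromosome 17 (GRCh38 chr17:40309180-40357643, GRCh37 chr17:38465432-38513895, 48464 bp in both). Of its 3 RefSeq starts, the second, at position 40318245 and 9065 bp into the record, carried the H3K4me3. The sgNeg peak chr17:40318287-40319478 began 42 bp downstream of that start, was 1192 bp wide (4134th widest of 353628) and had a fold enrichment of 10.2 from 48 fragments, ranking 1618th. The exact Poisson 95% interval of those 48 fragments was 35.4 to 63.6, which covers counting error only. In sgNpm1A no peak lay within 1738 bp of that start. The first RARA start, the beginning of the record, had in sgNeg a 211 bp peak of 15 fragments (fold enrichment 3.33, rank 152491), and in sgNpm1A the nearest peak lay 6927 bp away. The third start, at position 40342166, had no sgNeg peak within 1569 bp. It was the only receptor start with a sgNpm1A H3K4me3 peak within 1 kb, which was chr17:40340991-40341246, 256 bp wide, with a fold enrichment of 3.82 from 14 fragments and rank 34200 of 106641, ending 920 bp upstream of the start. That peak stood 4 fragments above the lowest peak of its list.

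H3K4me3 carries no strand, and the tall RARA peak also held the start of another transcript. The antisense long noncoding RNA gene ENSG00000287644 begins 431 bp downstream of the second RARA start, at position 40318676 of GRCh38 in the GENCODE record, which is inside the sgNeg peak. From these lists, H3K4me3 of the 2 transcripts cannot be told apart. A further 4 sgNeg peaks followed, ending at position 40322388, the nearest being chr17:40319613-40320227, with a fold enrichment of 6.03 and rank 9525. Of 22 sgNeg H3K4me3 peaks in the RARA region, 2 (9.09%) overlapped a sgNpm1A peak, and of 5 sgNpm1A peaks 2 (40%) overlapped a sgNeg peak. Over the whole H3K4me3 lists these shares were 22.6% and 61.2%.

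At the same place H3K27Ac formed a broad block in control cells. The window of 300 bases at the second RARA start matched GRCh37 exactly once, which puts that start at position 38474497, inside the sgNeg peak chr17:38465915-38481244. This peak was 15330 bp wide, the 252nd widest of 327715, with a fold enrichment of 6.15 and rank 2441, and it spanned the GENCODE starts at 9101, 9105 and 13811 bp into the record. It began 483 bp downstream of the record start. In sgNpm1A the block was replaced in the list by 5 separate peaks that covered 26.1% of its length, the highest of them being chr17:38465688-38466800, 1113 bp wide with a fold enrichment of 3.13 and rank 91591 of 317059. None of these 5 reached the second start, and none lay within 1 kb of it. Of the 10 GENCODE start positions of RARA, 10 had a sgNeg and 6 a sgNpm1A H3K27Ac peak within 1 kb. For RARG these counts were 18 and 18 of 18, and for RXRA and RXRB each 5 and 5 of 5. For RARB they were 10 and 9 of 20, and for VDR 8 and 3 of 8. Close starts share peaks, and the share over all GENCODE starts was not computed.

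**Figure D2:**
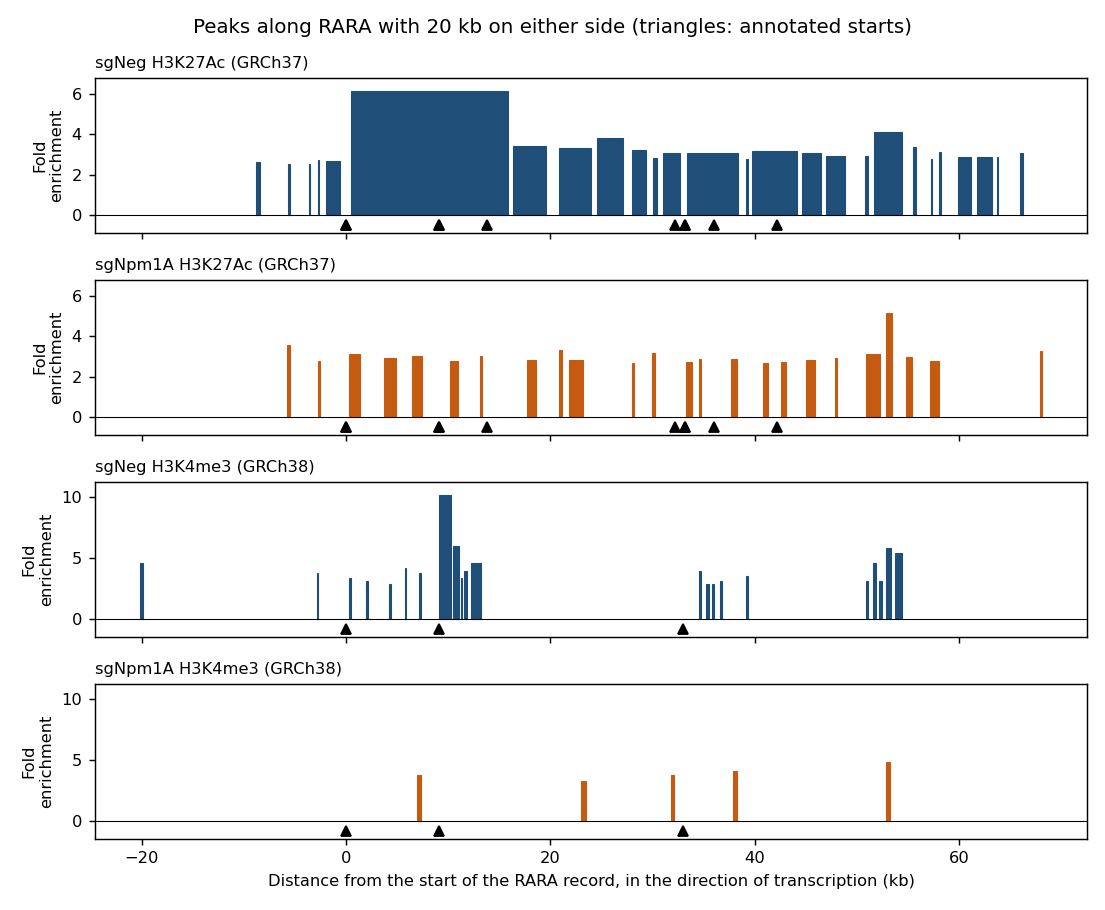
Peaks along RARA and 20 kb on either side, by distance in kb from the start of the record in the direction of transcription, which is set separately on each genome build. Bar width is the width of a peak to scale, bar height its fold enrichment within its own list, and triangles are annotated starts. The sgNeg lists showed a 15330 bp H3K27Ac block and the tall H3K4me3 peak at the second start, neither of which stood in the sgNpm1A lists.

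Downstream of RARA the picture differed. About 53 kb from the RARA start, inside the record of GJD3, a gap junction protein gene on the opposite strand, both marks had a peak in both lists. The sgNpm1A H3K27Ac peak chr17:38518269-38518886 was the highest of the RARA region, with a fold enrichment of 5.13 and rank 1245 (percentile 99.6), and it lay 52837 to 53454 bp from the RARA start. The sgNeg H3K27Ac peak that held it, chr17:38517099-38519845, had a fold enrichment of 4.10 and rank 11267. For H3K4me3 the sgNpm1A peak chr17:40362065-40362454 lay 52885 to 53274 bp from the RARA start, held 18 fragments (fold enrichment 4.83, rank 6144), and overlapped the sgNeg peak chr17:40362058-40362548 with 27 fragments (fold enrichment 5.82, rank 10539). Within its list the sgNpm1A H3K27Ac peak at this site stood higher than the sgNeg one, whereas the promoter of GJD3 itself was at the 90.8th H3K27Ac percentile in sgNeg and the 55.4th in sgNpm1A. The sgNpm1A H3K4me3 peak had the higher rank but, in a shorter list, the lower percentile (92.6 against 96.8).

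RXRA, a shared partner of the retinoic acid receptors and VDR, lies on the plus strand of chromosome 9 (GRCh38 chr9:134326455-134440585). Its first RefSeq start, the beginning of that record, carried the H3K4me3. The sgNeg peak chr9:134326528-134329238 began 73 bp downstream of the start, was 2711 bp wide (206th widest) and had a fold enrichment of 12.9 from 61 fragments (exact Poisson 95% interval 46.7 to 78.4), ranking 418th of 353628. This was the highest and widest H3K4me3 peak over the 6 receptor regions. In sgNpm1A no peak lay within 6880 bp of the start. The second RefSeq start, 52840 bp further on at position 134379295, had a 174 bp sgNeg peak of 15 fragments (fold enrichment 3.33) and no sgNpm1A peak within 6228 bp. The widest other sgNeg peaks in the gene were the neighbouring chr9:134373156-134374541 (1386 bp, fold enrichment 4.78) and chr9:134374689-134375710 (1022 bp, 4.37), which lay upstream of the second start, beyond the 1 kb limit. RXRA still held 36 sgNpm1A H3K4me3 peaks against 84 in sgNeg. The highest of the 36 was chr9:134415496-134415872, at a fold enrichment of 4.58 and rank 9547, and it lay 89041 bp into the gene.

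In control cells H3K27Ac peaks covered 81.4% of the RXRA region, which put RXRA at the 99.7th percentile of coding genes. Its 2 RefSeq windows each matched GRCh37 once, at positions 137218301 and 137271141, and each start lay inside a very wide peak. The first was in chr9:137205333-137228170 (22838 bp, 69th widest, fold enrichment 5.79, rank 3172), and the second in chr9:137261234-137285808 (24575 bp, 53rd widest, fold enrichment 5.79, rank 3176). Of the other sgNeg peaks, chr9:137291621-137317072 was 25452 bp wide and the 49th widest of the list at a fold enrichment of 3.61, and chr9:137247518-137260762 was 13245 bp wide at 4.07. In sgNpm1A the 61 peaks of the region covered 46.4%, at the 98.0th percentile of coding genes, and the widest was 4747 bp. The highest sgNpm1A peak, chr9:137260018-137260736, had a fold enrichment of 4.20 (percentile 98.6) and lay in the body of the gene. Neither start lay inside a sgNpm1A peak, although each had a sgNpm1A H3K27Ac peak within 1 kb, of fold enrichment 2.97 at the first start and 3.08 at the second.

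**Figure D3:**
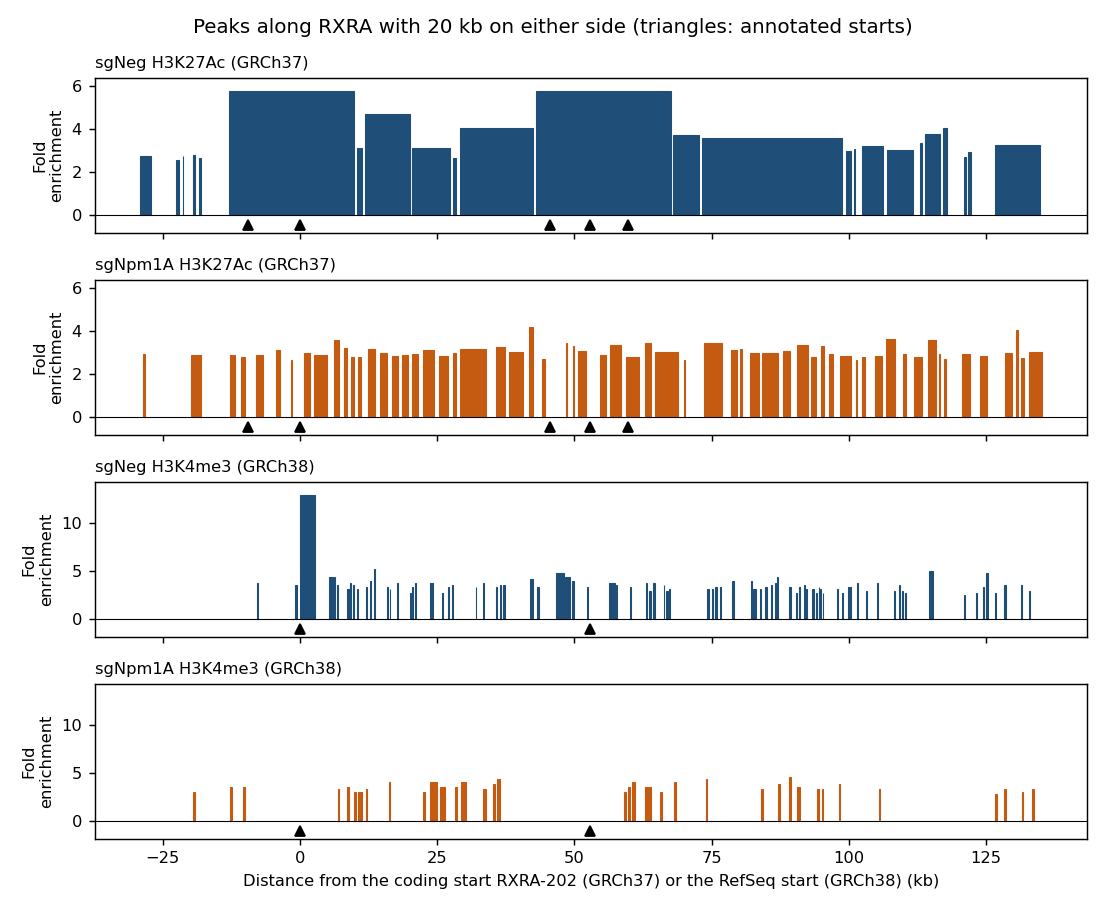
Peaks along RXRA and 20 kb on either side, by distance in kb from the first RefSeq start (GRCh38) or from the start of transcript RXRA-202 (GRCh37), the same start by sequence match. Bars and triangles are drawn as for RARA. In sgNeg, peaks of over 22 kb spanned both RefSeq starts and 1 tall H3K4me3 peak stood at the first start, while the sgNpm1A lists held 61 narrower H3K27Ac peaks and 36 low H3K4me3 peaks.

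The wide blocks were compared with all sgNeg H3K27Ac peaks of 10000 bp or more, a width chosen after the lists had been seen. There were 815 such peaks, of which sgNpm1A peaks covered a median of 25.02% (quartiles 8.67% and 46.4%). The RARA block (26.1%) and a RARG block (26.2%) lay at the 51.5th and 51.7th percentiles of these 815. The 4 RXRA blocks were covered over 40.7%, 71.8%, 48.9% and 58.8% of their length, at the 70.1st, 90.4th, 76.8th and 83.6th percentiles. The RARA and RARG blocks thus lay near the middle for blocks of this width, and the 4 RXRA blocks were covered over more of their length than the median block.

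RXRB, the second retinoid X receptor examined, lies on the minus strand of chromosome 6 (GRCh38 chr6:33193588-33200853) head to head with SLC39A7, a zinc transporter gene. In sgNeg 2 H3K4me3 peaks flanked the RXRB starts at positions 33200665 and 33200853 and left a gap of 418 bp between them that held both. The peak on the upstream side, chr6:33200987-33202329, was 1343 bp wide (2848th widest) with a fold enrichment of 7.28 from 34 fragments (rank 5708). The peak on the gene side, chr6:33199427-33200568, was 1142 bp wide with a fold enrichment of 6.24 from 29 fragments (rank 8632). SLC39A7 has annotated starts in the same gap, 14 bp from the RXRB record start at the closest, and starts inside both peaks, so the H3K4me3 of the 2 genes cannot be told apart. In sgNpm1A the nearest H3K4me3 peak lay 8721 bp from an RXRB start. H3K27Ac in sgNeg was a single peak of 3197 bp over the shared promoter (GRCh37 chr6:33167142-33170338, fold enrichment 5.32, rank 4539). In sgNpm1A a peak of 2750 bp (chr6:33169237-33171986, fold enrichment 2.93, percentile 48.2) lay on the SLC39A7 side.

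RARG, a retinoic acid receptor with a role in hematopoietic stem cells, lies on the minus strand of chromosome 12 (GRCh38 chr12:53210569-53232209). Its single RefSeq start carried little H3K4me3 in sgNeg, with a peak of 114 bp at a fold enrichment of 2.91 from 13 fragments (percentile 19.1), 2 fragments above the lowest peak of the list. No sgNpm1A peak lay within 3869 bp. The highest sgNeg H3K4me3 peak of the region, at chr12:53252126-53253433 with a fold enrichment of 8.11 from 38 fragments, lay at the start of SLC61A1 (named MFSD5 in GENCODE), a neighbouring gene. RARG did have a broad H3K27Ac block in sgNeg, chr12:53607083-53619762 on GRCh37, 12680 bp wide (438th widest) at a fold enrichment of 3.42, which lay inside the gene and spanned 6 internal GENCODE starts. At the 5′ end the sgNeg peak was 1611 bp wide at the 56.8th percentile, and the sgNpm1A peak was 752 bp wide at the 69.6th.

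RARB, a retinoic acid receptor whose own gene is a direct target of retinoic acid, spans 768612 bp on GRCh38 (chr3:24829321-25597932). None of its 4 RefSeq starts had an H3K4me3 peak within 1 kb in either list. In sgNeg the nearest peaks lay 2409 to 32456 bp from these starts, and in sgNpm1A 22108 bp or more. The first start held 33 CpG in its window, at the 79.9th percentile of windows, and was without H3K4me3 in sgNeg, whereas 82.0% of starts with 30 or more CpG had a peak. The third start, with the direct repeat printed above, held 7 CpG and lay 2409 bp from the nearest sgNeg H3K4me3 peak. By exact match the third start lies at position 25469754 of GRCh37, where a sgNeg H3K27Ac peak of 162 bp (fold enrichment 2.54, the lowest of its list) and a sgNpm1A peak of 215 bp (2.94, percentile 49.5) lay upstream within 1 kb. Peaks covered 1.86% (sgNeg) and 3.64% (sgNpm1A) of the RARB region for H3K27Ac, and its highest fold enrichment was 3.49 and 3.76.

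VDR, the vitamin D receptor, lies on the minus strand of chromosome 12 (GRCh38 chr12:47841537-47904994). Its GRCh38 record start had a low sgNeg H3K4me3 peak, 254 bp wide with a fold enrichment of 3.12 from 14 fragments (percentile 34.4), and no sgNpm1A peak within 7336 bp. The highest sgNeg H3K4me3 peak of the region lay inside the gene, 6717 bp from that start, with a fold enrichment of 5.20 from 24 fragments and a width of 257 bp. For H3K27Ac, VDR differed from RARA and RXRA in having no wide block, and its widest peaks were 1718 bp in sgNeg and 2039 bp in sgNpm1A. At the cluster of GENCODE starts about 38 kb into the GRCh37 record, a sgNeg peak of 714 bp stood at the 86.5th percentile and, over the starts of VDR-206, VDR-208, VDR-203 and VDR-204, no sgNpm1A peak lay within 1 kb. The GRCh37 record (101512 bp) is longer than the GRCh38 one (63458 bp), so the 2 record starts are different places. At the GRCh37 record start the order was the other way. A sgNpm1A peak of 310 bp at the 87.6th percentile and a sgNeg peak of 349 bp at the 55.5th both covered it. Another sgNeg peak, of 173 bp at the 61.3rd percentile, lay 908 bp or more upstream. Of the 8 GENCODE start positions, 8 had a sgNeg and 3 a sgNpm1A H3K27Ac peak within 1 kb. Close starts share peaks, and the share over all GENCODE starts was not computed. The starts of VDR-206, VDR-208, VDR-203 and VDR-204 lay 1004 to 1032 bp from the nearest sgNpm1A peak, just beyond the limit. VDR-205 of the same cluster had that peak within 1 kb by 15 bp.

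**Figure D4:**
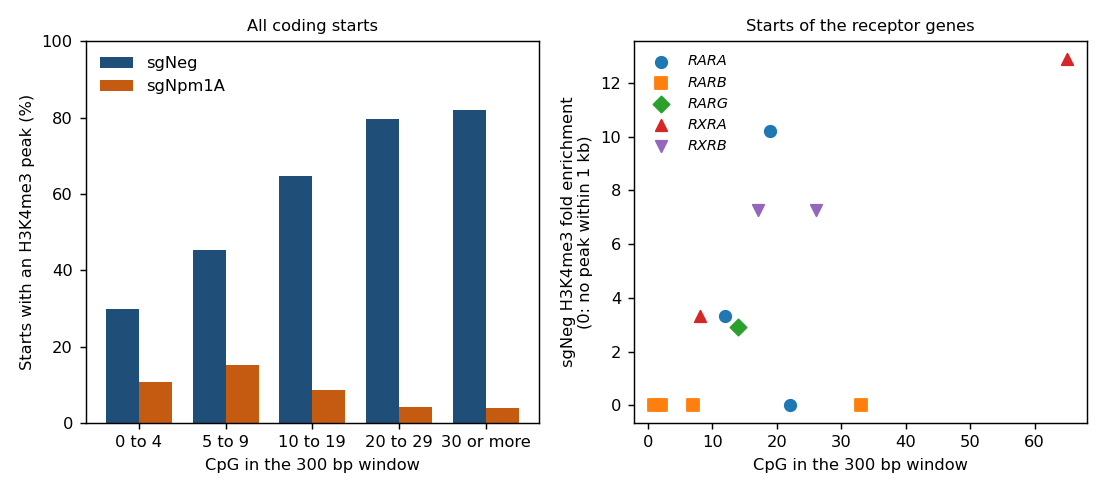
Left, share of the RefSeq starts of coding genes with an H3K4me3 peak within 1 kb (y axis, percent), by the number of CpG in the window of 300 bp (x axis), for sgNeg (blue) and sgNpm1A (orange). Right, sgNeg H3K4me3 fold enrichment at each RefSeq start of 5 receptor genes (y axis, 0 for no peak) against the CpG count (x axis). RXRA stood highest at 65 CpG, and the RARB start with 33 CpG had no peak.

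The length covered by peaks gave a measure over the whole of each region that did not rest on any start. For H3K27Ac the covered share was lower in sgNpm1A for 4 of 6 receptors (63.5% of coding genes) and higher for 2 of 6 (32.3%). It went from 56.4% to 16.7% in RARA, from 52.3% to 24.2% in RARG, from 81.4% to 46.4% in RXRA, from 32.5% to 28.9% in RXRB, from 1.86% to 3.64% in RARB and from 16.8% to 17.4% in VDR. The ratio of sgNpm1A to sgNeg was 0.297 in RARA, at the 15.9th percentile of the 19083 coding genes with a sgNeg peak in their region, and 1.96 in RARB, at the 89.4th. The median ratio of those genes was 0.722. RARG (0.463) and RXRA (0.570) lay below it, and RXRB (0.891) and VDR (1.03) above. For H3K4me3 the covered share was lower in sgNpm1A for 6 of 6 receptors and higher for 0 of 6, where 87.7% of coding genes were lower and 5.84% higher. It went from 8.44% to 2.29% in RARA, from 1.04% to 0.68% in RARB, from 9.32% to 3.93% in RARG, from 16.4% to 10.1% in RXRA, from 16.9% to 3.74% in RXRB and from 5.35% to 1.77% in VDR. The median ratio of coding genes was 0.342. RARA (0.271), RXRB (0.221) and VDR (0.331) lay below it, and RARG (0.421), RXRA (0.614) and RARB (0.655) above. Summed over the 6 regions, the covered length in sgNpm1A was 0.656 times that in sgNeg for H3K27Ac and 0.481 times for H3K4me3, where the sums over the regions of all coding genes gave 0.742 and 0.513. These are ratios of peaks called separately in each list, and with the 20000 peaks of lowest p-value they were 0.0538 and 0.110. With a q-value under 0.01 the H3K27Ac ratio was 0.279.

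**Figure D5:**
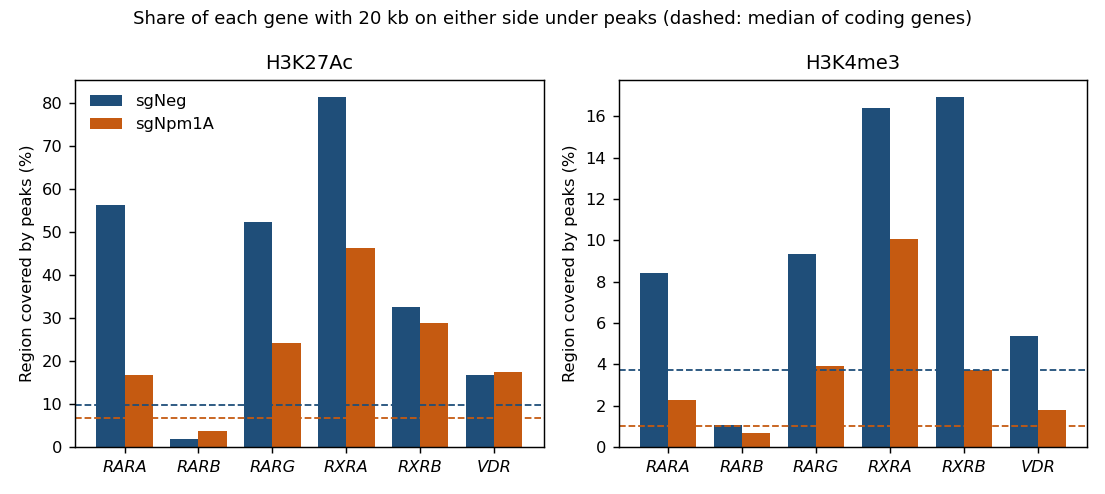
Share of each receptor gene with 20 kb on either side that lay under peaks (bars, percent, 1 library each) for H3K27Ac (left) and H3K4me3 (right), blue for sgNeg and orange for sgNpm1A. Dashed lines give the median over coding genes. RXRA had the largest H3K27Ac share in both lists, 81.4% and 46.4%, and RARB lay under the medians.

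The highest H3K27Ac peak of the whole region often lay outside the promoter. Its percentile was lower in sgNpm1A for 2 of 6 receptors (RXRA and RXRB), where 63.5% of coding genes were lower. In RARA the highest peak moved from the block over the starts (percentile 99.3 in sgNeg) to the GJD3 site (99.6 in sgNpm1A). With no flank, the count was 5 of 6, a setting for which no share of coding genes is given. For H3K4me3 the percentile was lower for 6 of 6, where 84.3% of coding genes were lower, and the sgNpm1A percentiles ran from 43.9 (VDR) to 92.6 (RARA).

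Neighbouring coding genes with a start in the same regions gave a local comparison. In the H3K27Ac lists CDC6, a replication licensing gene before RARA, was at the 99.1st percentile in sgNeg and had no promoter peak in sgNpm1A, and TOP2B, the topoisomerase gene at the end of RARB, was at the 99.8th and likewise had none. ITGB7, an integrin gene behind RARG, was at the 96.2nd percentile in sgNeg and the 97.9th in sgNpm1A, and HDAC7, a histone deacetylase gene behind VDR, was at the 98.3rd and 97.8th. MFSD5, before RARG, was at the 96.9th and 58.2nd percentiles. Around RXRB, SLC39A7 was at the 98.6th and 48.2nd percentiles, RING1, a Polycomb component, was at the 98.3rd and 31.6th percentiles, HSD17B8 at the 92.6th and 48.2nd, and COL11A2, a collagen gene, at the 80.6th and 61.3rd. For H3K4me3, COL11A2 was at the 49.6th percentile in sgNeg and at the 82.4th in sgNpm1A, while SLC39A7, RING1, HSD17B8 and SLC61A1 had a promoter peak in sgNeg and none in sgNpm1A.

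The wider pathway was examined over 50 listed genes in 5 groups. An H3K27Ac promoter peak was listed for 43 of 50 in sgNeg (79.1% of coding genes) and 35 of 50 in sgNpm1A (57%), or 21 of 50 in sgNpm1A with a q-value under 0.01. In sgNpm1A 35 genes were at a lower percentile (65.6% of coding genes) and 11 at a higher one (18.4%), and the median went from 92.6 to 53.8, where that of all coding genes went from 92.4 to 23.03. An H3K4me3 promoter peak was listed for 34 of 50 in sgNeg (68.3% of coding genes) and 6 of 50 in sgNpm1A (9.49%), with 32 lower (65.8%) and 3 higher (4.26%), so these counts were near the shares of coding genes.

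Among 11 other nuclear receptors, 9 had a sgNeg and 6 a sgNpm1A H3K27Ac promoter peak (79.1% and 57% of coding genes). For H3K4me3, 9 and 2 had one (68.3% and 9.49%). The liver X receptor genes led the sgNeg H3K27Ac percentiles, with NR1H2 at 99.8 and then 98.4 in sgNpm1A, and NR1H3 at 99.7 with no sgNpm1A peak. For H3K4me3 the thyroid hormone receptor gene THRA was at 99.1 and 60.5, PPARD at 98.9 with no sgNpm1A peak, and RXRG at 72.7 and 60.5. RXRG, the third retinoid X receptor, was also at a higher H3K27Ac percentile in sgNpm1A (91.6 and 94.9), as was THRB (no peak, then 72.9).

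Of the 10 coregulator genes, 10 had a sgNeg and 8 a sgNpm1A H3K27Ac promoter peak (79.1% and 57% of coding genes). For H3K4me3, 9 and 0 had one (68.3% and 9.49%). The corepressor genes NCOR1 and TBL1XR1 led for H3K27Ac, both at 99.9 in sgNeg and at 24.8 and 3.21 in sgNpm1A. For H3K4me3, NRIP1, a ligand-dependent corepressor gene, stood at 99.6 and NCOR1 at 99.5, neither with a sgNpm1A peak. HDAC3, a deacetylase that works with NCOR1, was the 1 coregulator gene at a higher H3K27Ac percentile in sgNpm1A (78.7 and 87.7). Its other values were lower in sgNpm1A. H3K27Ac peaks covered 47.5% of its region in sgNeg and 12.6% in sgNpm1A, and for H3K4me3 it was at 98.7 and had no sgNpm1A peak.

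Of 14 retinoid handling genes, 11 had an H3K27Ac promoter peak in each list (79.1% and 57% of coding genes). For H3K4me3, 7 and 3 had one (68.3% and 9.49%). The retinol dehydrogenase gene RDH10 was highest in sgNeg for both marks (H3K27Ac 99.9 and 76.8 in sgNpm1A, H3K4me3 99.1 and no peak), followed by DHRS9 for H3K27Ac (99.6 and no peak) and RDH11 for H3K4me3 (98.6 and no peak). For H3K27Ac, 8 of the 14 were at a lower percentile in sgNpm1A and 5 at a higher one, where 18.4% of coding genes were higher. The 5 included the 3 genes of the CYP26 enzymes, which degrade retinoic acid. CYP26A1 was at 4.59 and 35.9, CYP26B1 had no sgNeg peak and was at 69.2, and CYP26C1 had none and was at 88.1. ALDH1A3, a retinaldehyde dehydrogenase gene, was at 37.9 and 62.2. The 3 with a sgNpm1A H3K4me3 promoter peak were STRA6, the retinol uptake receptor (49.6 and 73.3), ALDH1A2 (no sgNeg peak, then 9.84) and CYP26A1 (62.6 and 60.5).

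Of 5 vitamin D handling genes, 4 had an H3K27Ac promoter peak in each list (79.1% and 57% of coding genes). GC, the vitamin D binding protein (95.6 and 18.3), led in sgNeg, followed by the hydroxylase gene CYP2R1 (94.7 and 52.7). CYP27B1, which makes the active hormone, was at a higher percentile in sgNpm1A (44.1 and 68.0). CYP2R1 alone had a sgNeg H3K4me3 promoter peak (93.1), where 68.3% of coding genes had one. None of the 5 had one in sgNpm1A, where 9.49% of coding genes did. Of 10 target genes in myeloid cells, 9 had a sgNeg and 6 a sgNpm1A H3K27Ac promoter peak (79.1% and 57% of coding genes). For H3K4me3, 8 and 1 had one (68.3% and 9.49%). CD38, a retinoic acid responsive surface enzyme, was at 97.5 for H3K27Ac and 91.3 for H3K4me3 in sgNeg and had no promoter peak in sgNpm1A. For H3K27Ac, 7 of the 10 were at a lower percentile in sgNpm1A (65.6% of coding genes) and 2 at a higher one (18.4%). The 2 were CD14, the monocyte marker (71.3 and 86.8), and PLAAT4, a retinoid responder gene (65.5 and 94.7). For H3K4me3, CD14 was at 85.2 and PLAAT4 at 7.07 in sgNeg, and neither had a sgNpm1A promoter peak. H3K27Ac peaks covered 30.7% (sgNeg) and 8.55% (sgNpm1A) of the CD14 region, and 10.8% and 12.7% of the PLAAT4 region. CEBPE, a granulocytic transcription factor gene, had the single sgNpm1A H3K4me3 promoter peak, at 25.6 against 7.07 in sgNeg.

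By the covered shares of the region in all 4 lists, the coding genes most like RARA of 19100 compared were TPCN1, SH2D6 and RITA1, at Euclidean distances of 2.06, 2.13 and 2.36 percentage points. TPCN1, for instance, went from 56.8% to 15.1% for H3K27Ac and from 7.27% to 2.15% for H3K4me3. The genes most like RXRA were NISCH, S100A6 and STAB1, at 6.95, 8.09 and 8.24, so RXRA had no neighbour as close as those of RARA.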

How the data were processed

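ChIPmentation libraries, in which chromatin precipitated with an antibody is tagmented by Tn5 transposase on the beads, were made from OCI-AML3 cells. Per the submitters' processing notes, bcl2fastq 2.17, Trimmomatic 0.33, Bowtie 1.1.2, MACS2 2.1.0 and deepTools were used, and the calling threshold and the use of the inputs are not given in the sources used here. The authors deposited narrow peak lists, 1 per library, with fold enrichment (a ratio to the caller's background) and −log10 p- and q-values as deposited. Fold enrichment was recomputed as (fragments + 1) over (background + 1) in the H3K4me3 lists, where 100% of peaks gave a whole number of fragments within 0.02. Depth is unknown for the H3K27Ac lists. The 2 input libraries were not analysed here.

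Peaks were taken in each gene record with 20000 bp on either side, and at every start with 1000 bp on either side, on GENCODE 44 lifted to GRCh37 (146567 starts) and on RefSeq starts of GRCh38.p14 (28022 starts), with at least 1 bp of overlap counting. Coordinates were not converted between builds. RefSeq windows of 300 bases were placed on GRCh37 by exact sequence match. Peaks were ranked by fold enrichment and by width within each list (ties share a rank). The percentile is that of fold enrichment, with ties averaged. Python 3.11.15, pandas 2.3.3, numpy 2.4.6, scipy 1.17.1 and matplotlib 3.10.9 were used, and the counting was tested on simulated peaks. The 6 genes and the lists were chosen with earlier results of these data known. All 6 receptors and the coding neighbours were named, with, in each pathway list and mark, the 2 genes of highest sgNeg percentile, every gene with a sgNpm1A H3K4me3 promoter peak or a higher sgNpm1A H3K27Ac percentile, and the 3 genes nearest RARA and RXRA. Some genes that this rule covers are not reported here. The RARA antisense transcript, the GJD3 site, the wide blocks and the CpG groups were singled out after their values were seen. Alternatives were a q-value under 0.01, an overlap of 200 bp, a promoter of 250 bp, the record start alone, no flank, the 20000 peaks of lowest p-value, and ranking by p-value.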

Additional observations from a re-analysis of the deposited data

How the results depend on the processing

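No paired analysis was possible because each group had 1 library, and for the same reason no library could be left out. Of 30 values recomputed under the alternatives, 22 stayed near the main value and 8 moved. The ratio of sgNpm1A to sgNeg covered length, summed over the 6 regions, was 0.656 for H3K27Ac and became 0.279 with peaks of a q-value under 0.01 and 0.0538 with the 20000 peaks of lowest p-value, and for H3K4me3 0.481 became 0.110 with the 20000 peaks of lowest p-value. Over the whole lists the same ratio was 0.884, 0.852 (q-value under 0.01) and 0.334 (20000 peaks) for H3K27Ac, and 0.591 and 1.05 (20000 peaks) for H3K4me3. The number of receptors whose highest H3K27Ac region peak had a lower percentile in sgNpm1A was 2 with the flank and 5 with none, which leaves the neighbouring genes out. The sgNpm1A H3K4me3 promoter peak of 1 receptor (RARA) was 0 under an overlap of 200 bp, a promoter of 250 bp or the record start alone. With a q-value under 0.01, 21 of the 50 pathway genes had a sgNpm1A H3K27Ac promoter peak in place of 35. The cause of the other shifts was not tested. Low H3K4me3 peaks near 10 or 11 fragments limit what the absence of a peak can show.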
